A study of Mus musculus with 7 samples.

Results

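The miR-15 and miR-16 seed family, with its relatives miR-195a, miR-497a and miR-322, is a group of microRNAs (miRNAs: small RNAs that guide repression of messenger RNAs) whose mature strands share bases 2 to 8, the seed that pairs with target messages. Its 10 members in the count table were chosen by name, with earlier results of these data known. They comprise the 6 strands that carry the seed, mmu-miR-15a-5p, mmu-miR-15b-5p, mmu-miR-16-5p, mmu-miR-195a-5p, mmu-miR-497a-5p and mmu-miR-322-5p, and 4 opposite strands of the same hairpins, mmu-miR-15a-3p, mmu-miR-15b-3p, mmu-miR-16-1-3p and mmu-miR-16-2-3p. They are 10 of 1915 entries, and all 10 had enough reads to be tested among 878 miRNAs. The study is named for miR-15a and miR-16-1, and it sequenced small RNA from colorectum; all mice were female, wild type, of strain C57BL/6 and 7 weeks old at the start of treatment. The 3 colorectal cancer (CRC) mice, M4, M5 and M6, were injected with the colon carcinogen azoxymethane (AOM) at 10 mg/kg. From 5 days later they drank dextran sodium sulfate (DSS, an agent that damages colon epithelium) at 2.5% for 7 days and then plain water for 14 days. The labels give this course 3 times and place stage T1 at day 17 without saying how the day relates to the courses. The 3 healthy mice, M1, M2 and M3, received 0.9% NaCl by injection. No group received AOM alone or DSS alone, so the effects of the 2 agents cannot be told apart here, and whole tissue was sequenced, in which more cells of a type and more RNA per cell cannot be told apart either.

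A miRNA is cut from a hairpin, and usually one arm, the guide, is loaded into the silencing complex while the other, the passenger, is degraded. Family members come from paralogous clusters: miR-15a with miR-16-1, miR-15b with miR-16-2, miR-497a with miR-195a, and miR-322 (the mouse counterpart of human miR-424) with miR-503. The family is known for repressing cell cycle genes such as cyclins D1 and E1 and the survival gene Bcl2, and the cluster of miR-15a and miR-16-1 is deleted in many human chronic lymphocytic leukaemias. Because both miR-16 hairpins yield one and the same mature 5p strand, only their passenger strands carry a trace of the locus of origin.

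The 6 seed strands are shown because the seed defines the family and the bases behind it tell the members apart; capitals mark bases 2 to 8 counted from the 5′ end. Sequences are the RefSeq entries on GRCm38.p6, and each equalled the sequence in the deposited table.
miR-15a-5p: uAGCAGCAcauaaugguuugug
miR-15b-5p: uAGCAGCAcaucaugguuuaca
miR-16-5p: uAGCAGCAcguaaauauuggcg
miR-195a-5p: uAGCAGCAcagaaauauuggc
miR-497a-5p: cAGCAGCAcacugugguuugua
miR-322-5p: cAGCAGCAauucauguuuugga
Aligned from the first base without gaps, miR-16-5p and miR-195a-5p differed at 2 of 21 bases and miR-15a-5p and miR-15b-5p at 4 of 22. miR-15a-5p differed from miR-497a-5p at 5 bases, from miR-16-5p at 6 and from miR-322-5p at 7, and miR-16-5p differed from miR-497a-5p at 11 of 22.

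The passenger strands are shown because they differ between the paralogous hairpins, with bases 2 to 8 again in capitals. None of the 4 holds the family seed.
miR-15a-3p: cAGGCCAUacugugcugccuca
miR-15b-3p: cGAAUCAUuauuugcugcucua
miR-16-1-3p: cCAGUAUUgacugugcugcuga
miR-16-2-3p: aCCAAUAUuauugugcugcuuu
The pair of miR-16 hairpins shows how a shared guide and unlike passengers sit in each precursor, where capitals mark the 5p strand first and the 3p strand second.
mir-16-1: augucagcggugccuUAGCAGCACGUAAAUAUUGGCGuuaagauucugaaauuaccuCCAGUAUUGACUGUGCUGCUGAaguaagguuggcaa
mir-16-2: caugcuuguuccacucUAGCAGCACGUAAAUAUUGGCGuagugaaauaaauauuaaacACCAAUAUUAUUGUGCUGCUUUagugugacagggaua

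By GENCODE M21 on GRCm38, Mir15a lies at chr14:61632027-61632110 on the minus strand in an intron of the long noncoding RNA gene Dleu2. Mir16-1 lies 54 bases away at chr14:61631880-61631972 and overlaps a Dleu2 exon. Mir15b, at chr3:69009772-69009835, and Mir16-2, at chr3:69009902-69009996, lie on the plus strand in an intron of Smc4, a condensin subunit gene, with 66 bases between them. Mir497, at chr11:70234717-70234800, and Mir195a, at chr11:70235042-70235135, are separated by 241 bases on the plus strand with no host gene in this annotation. Mir322 lies at chrX:53054255-53054349 on the minus strand, 200 bases from Mir503 at chrX:53053984-53054054.

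The deposited values are read counts per mature miRNA, with totals of 8222508 to 15280434 in healthy and 3206127 to 6601899 in CRC mice. Levels below are CPM (counts per 1e6 reads) on library sizes scaled by the trimmed mean of M-values (TMM), on which 3 counts equal 0.331 to 0.638 CPM. Mice fell into pairs by muscle signal: the 7 smooth muscle markers (miR-143, miR-145a, miR-1a and miR-133a strands) took 41.6% of reads in M1 and 48.0% in M2, 21.1% in M3 and 20.7% in M4, and 7.08% in M5 and 6.55% in M6. Healthy M3 and CRC M4 were in this respect nearer to each other than to their groups. All 7 smooth muscle markers were present in every mouse and had negative log2 differences, none passing edgeR's test. Epithelial markers (8 of 8 present) took 12.2% to 14.2% of reads in healthy and 13.6% to 17.5% in CRC mice, but on the TMM scale 1 of 8 had a positive log2 difference, so the direction differs with the scale. White blood cell markers (5 of 5) took 0.218% to 1.74% and 0.821% to 1.25%, and red blood cell markers (5 of 5) 0.0174% to 0.0641% and 0.0464% to 0.294%. Endothelial markers (2 of 2) took 0.787% to 1.33% and 1.20% to 1.97%, and fibroblast markers (5 of 5) 0.737% to 0.867% and 0.682% to 1.02%. On the TMM scale the log2 difference was positive for 2 of 5 white blood cell, 4 of 5 red blood cell, 1 of 2 endothelial and 0 of 5 fibroblast markers, and edgeR called none of these markers. The part of any of these cell types in the results below was not tested.

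No family member passed the test between CRC and healthy mice: 0 of 10 had an edgeR adjusted p at or under 0.05, and 0 of 10 an unadjusted p under 0.05. Over all 878 miRNAs tested, 2.28% were called higher in CRC, 0% were called lower, and 23.2% had an unadjusted p under 0.05. Of the 10 members, DESeq2 called 0, where it called 111 of all 878 miRNAs. limma-voom also called 0 of the 10, but it called 0 of all 878, so its count does not set the members apart. The members split evenly, 5 with positive and 5 with negative log2 differences (10 positive with total counts alone), and their median of -0.01 lay beside -0.03 for all miRNAs tested. Among the seed strands 4 were positive and 2 negative (median 0.30), and among the passenger strands 1 was positive and 3 negative (median -0.30). On the TMM scale, every CRC mouse lay below every healthy mouse for 3 of 10 members, which held for 12.4% of all miRNAs tested. Every CRC mouse lay above for 0 of 10, which held for 14.1%. The 3 members that lay below were miR-16-5p, miR-195a-5p and miR-15a-3p, and as shares of total counts their groups overlapped.

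miR-16-5p was the most abundant member and ranked 30th of all miRNAs by mean CPM. It had 8467 CPM in M1, 7039 in M2 and 7977 in M3, against 6688 in M4, 4445 in M5 and 4922 in M6. Each CRC mouse was below each healthy mouse on the TMM scale, with M5 and M6 lowest. As shares of total counts the groups overlapped, and with total counts alone the log2 difference was 0.107 (adjusted p = 0.864, edgeR). The healthy mean was 7827 ± 726 CPM and the CRC mean 5352 ± 1182 CPM (SD, n = 3 mice in each group). edgeR's log2 difference was -0.55 with a standard error of 0.34, a 95% interval of -1.31 to 0.21 and an adjusted p of 0.347.

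miR-195a-5p, whose sequence is closest to miR-16-5p, had a like pattern at a lower level. Its levels were 2606, 2497 and 1995 CPM in M1, M2 and M3 and 1980, 1789 and 1548 CPM in M4, M5 and M6. The groups did not overlap on the TMM scale, but M3 and M4 were almost level, and as shares of total counts the groups overlapped. The edgeR log2 difference was -0.42 (95% interval -1.19 to 0.36, adjusted p = 0.499).

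miR-15a-5p, the guide of the cluster in the study's title, varied more among healthy mice than between groups. It had 1433 CPM in M1 and 928 CPM in M2 but 4144 CPM in M3, a 4.46-fold range, against 2425, 3422 and 3138 CPM in M4, M5 and M6. M3 was the highest of all 6 mice, M1 and M2 were the lowest, and the groups overlapped. The summed share of the 5 white blood cell markers was also lowest in M1 and M2 and highest in M3. It was 0.318%, 0.218% and 1.74% of reads in M1, M2 and M3 and 0.821%, 1.13% and 1.25% in M4, M5 and M6. Only 2 of the 5 had positive log2 differences on the TMM scale. Endothelial and red blood cell shares were likewise lowest in M1 and M2, where smooth muscle shares were highest. Epithelial shares were lowest in M3 and fibroblast shares in M6. These are shares of reads, not TMM-scaled levels, and their part in the miR-15a-5p pattern was not tested. The edgeR log2 difference of 0.47 for miR-15a-5p had a 95% interval of -0.75 to 1.68 and an adjusted p of 0.640. It was 1.25 without M3 and 0.17 without M2, not called either way (edgeR).

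miR-15b-5p, its paralog from the Smc4 intron, spread as widely but across other mice. It had 1230 CPM in M1, 268 in M2 and 571 in M3, and 1449 CPM in M4, 794 in M5 and 516 in M6. Healthy M1 and CRC M4 were the highest, healthy M2 was the lowest, and the groups overlapped. Its edgeR log2 difference was 0.42 (95% interval -0.93 to 1.76, adjusted p = 0.710), and it was 0.06 without M4 and 1.15 without M1, not called either way.

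The least abundant seed strands were miR-322-5p and miR-497a-5p. miR-322-5p, from the X chromosome, had 345, 264 and 373 CPM in M1, M2 and M3 and 386, 472 and 308 CPM in M4, M5 and M6, with a log2 difference of 0.25 (SE 0.39, adjusted p = 0.727, edgeR). miR-497a-5p had 192.1, 163 and 428.6 CPM in M1, M2 and M3 and 313, 415 and 271 CPM in M4, M5 and M6, with M3 high and M1 and M2 low as for miR-15a-5p. Its log2 difference was 0.35 (SE 0.475, adjusted p = 0.691, edgeR).

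The order of levels within the family was largely shared by the mice. miR-16-5p exceeded miR-15a-5p in 6 of 6 mice, miR-195a-5p exceeded miR-15b-5p in 6 of 6, and miR-15b-5p exceeded miR-322-5p in 6 of 6. miR-15a-5p and miR-195a-5p exchanged places, with miR-15a-5p higher in 4 of 6 mice, and their values overlapped. miR-322-5p was above miR-497a-5p in 5 of 6 mice. These counts compare strands whose capture in the library can differ with sequence.

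**Figure D1:**
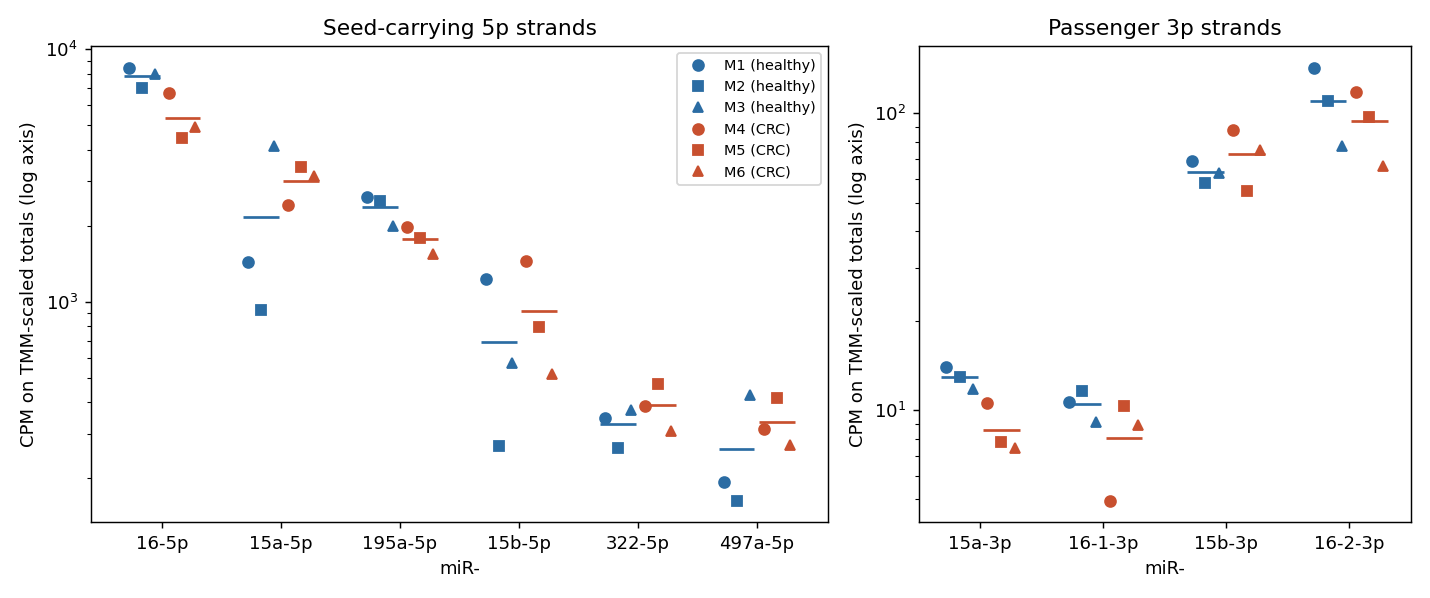
CPM on TMM-scaled totals (log axis) of each seed strand on the left and each passenger strand on the right, with 1 point per mouse (blue healthy, red CRC) and a bar at each group mean. miR-16-5p lies at 4445 to 8467 CPM with all red points below the blue ones, while for miR-15a-5p the highest point, 4144 CPM, and the lowest, 928 CPM, are both healthy mice.

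The passenger strands of the miR-15 and miR-16 hairpins were rarer than their guides in all 6 mice. miR-15a-3p had 14.0, 12.9 and 11.8 CPM in M1, M2 and M3 and 10.5, 7.79 and 7.44 CPM in M4, M5 and M6, from 35 to 125 reads per mouse. The 3 CRC mice were all below the 3 healthy ones, with a log2 difference of -0.58 (SE 0.45, adjusted p = 0.459, edgeR), so the 2 strands of mir-15a had differences of opposite sign, neither passing the test and both positive with total counts alone. miR-16-1-3p, from the same cluster, had 10.6, 11.6 and 9.14 CPM in M1, M2 and M3 and 4.95, 10.3 and 8.93 CPM in M4, M5 and M6. M4, with 31 reads, was the lowest, and the groups overlapped (log2 difference -0.38, SE 0.48, adjusted p = 0.675, edgeR).

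The passengers of the Smc4 cluster were more abundant. miR-16-2-3p had 142.5, 109.7 and 77.8 CPM in M1, M2 and M3 and 118, 97.2 and 66.6 CPM in M4, M5 and M6, so both groups covered nearly the same range (log2 difference -0.23, SE 0.43, adjusted p = 0.779, edgeR). miR-15b-3p had 68.8, 58.3 and 62.9 CPM in healthy and 88.1, 54.7 and 75.5 CPM in CRC mice (log2 difference 0.20, SE 0.40, adjusted p = 0.788, edgeR). Its guide, miR-15b-5p, ranged 4.59-fold over the healthy mice in which the passenger ranged 1.18-fold.

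Most miR-16 passenger reads came from the mir-16-2 hairpin. The mir-16-1 passenger was 6.94% of them in M1 (95 of the reads, against 1274 from mir-16-2; exact Clopper-Pearson 95% interval 5.65% to 8.42%), 9.55% in M2 and 10.5% in M3. In CRC mice it was 4.03% in M4 (2.76% to 5.67%), 9.60% in M5 and 11.8% in M6 (8.66% to 15.7%). CRC mice thus held both the lowest and the highest share. The intervals cover counting error only. The share of mature miR-16-5p made by each hairpin was not measured, since passenger strands need not survive equally.

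For miR-15, guide and passenger reads gave opposite shares. The strands differ in sequence, so their capture and survival can differ, and the output of each cluster was not measured. On the guide side, miR-15a-5p was 53.8%, 77.6% and 87.9% of miR-15 5p reads in M1, M2 and M3 and 62.6%, 81.2% and 85.9% in M4, M5 and M6. On the passenger side, miR-15a-3p was 16.9%, 18.2% and 15.8% of miR-15 3p reads in healthy mice and 10.7%, 12.5% and 8.97% in CRC mice. miR-15a was thus the larger part of the guides and the smaller part of the passengers in 6 of 6 mice, and its share overlapped between groups for the guides and not for the passengers.

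The ratio of 2 members within a mouse does not depend on scaling, and 8 ratios were compared between groups by a two-sided exact permutation test over mice, in which 3 against 3 cannot give a p below 0.1. miR-15a-3p over miR-15b-3p was 0.203, 0.222 and 0.187 in M1, M2 and M3 and 0.120, 0.142 and 0.0986 in M4, M5 and M6. This was the 1 ratio of 8 whose groups did not overlap, with a log2 difference of -0.78 (exact permutation p = 0.1, adjusted p = 0.533 over 8 ratios). With each mouse left out in turn the difference was -0.91 to -0.64.

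Guide ratios overlapped. miR-15a-5p over miR-16-5p, the latter pooled from both miR-16 hairpins, was 0.169, 0.132 and 0.519 in M1, M2 and M3 and 0.363, 0.770 and 0.637 in M4, M5 and M6, with M3 above CRC M4 (log2 difference 1.31, exact permutation p = 0.2, adjusted 0.533). miR-15b-5p over miR-16-5p was 0.145, 0.0381 and 0.0716 against 0.217, 0.179 and 0.105 (log2 difference 1.12, exact permutation p = 0.2, adjusted 0.533). miR-15a-5p over miR-15b-5p was 1.17, 3.46 and 7.26 against 1.67, 4.31 and 6.08 (log2 difference 0.19, exact permutation p = 0.8, adjusted 0.900). The last ratio thus ran through the same range in both groups.

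The other ratios overlapped as well. miR-195a-5p over miR-497a-5p, neighbours on chromosome 11, was 13.6 and 15.3 in M1 and M2 but 4.66 in M3, near the 6.32, 4.31 and 5.71 of M4, M5 and M6 (log2 difference -0.88, exact permutation p = 0.3, adjusted 0.600). The passenger ratio within the Dleu2 cluster, miR-15a-3p over miR-16-1-3p, was 1.12 to 1.32 in healthy and 0.754 to 2.13 in CRC mice, with a log2 difference of -0.17 (exact permutation p = 0.9). Within the Smc4 cluster, miR-15b-3p over miR-16-2-3p was 0.483 to 0.809 and 0.562 to 1.13, with a log2 difference of 0.40 (exact permutation p = 0.4). miR-16-1-3p over miR-16-2-3p was 0.0746 to 0.118 and 0.0420 to 0.134, with a log2 difference of -0.21 (exact permutation p = 0.9).

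**Figure D2:**
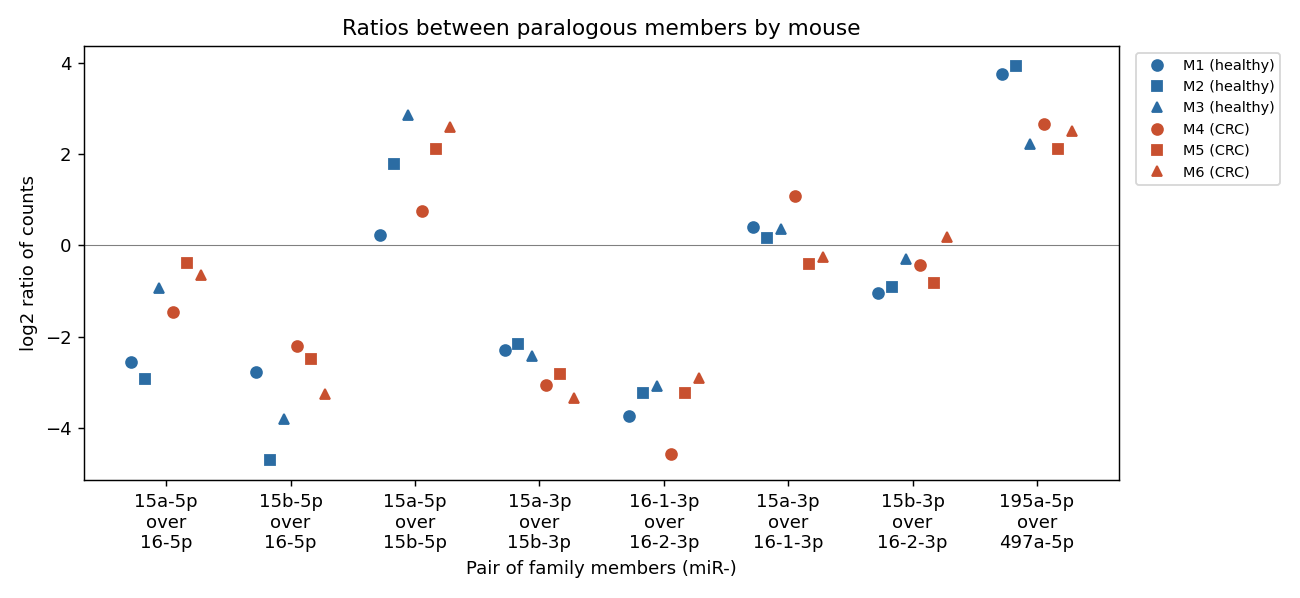
log2 of the ratio of counts (vertical axis) for 8 pairs of family members (horizontal axis), 1 point per mouse, blue healthy and red CRC. The miR-15a-3p over miR-15b-3p points form the 1 pair without overlap, at a mean of -2.30 in healthy and -3.07 in CRC mice, and M3 lies with the CRC mice for miR-195a-5p over miR-497a-5p.

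Summed over the 6 seed strands, the family took 1.03%, 0.649% and 1.71% of miRNA reads in M1, M2 and M3 and 1.26%, 1.76% and 1.57% in M4, M5 and M6. The means were 1.13% ± 0.537 in healthy and 1.53% ± 0.253 in CRC mice (SD, n = 3 each), and the groups overlapped. The smooth muscle share moved against this sum, as M1 and M2 had the most smooth muscle reads and the lowest family share. Among reads other than miR-143 and miR-145a, the family took 1.75%, 1.24% and 2.16% in healthy and 1.58%, 1.89% and 1.68% in CRC mice, and the ratio of the means was 0.999 in place of 1.35. On the TMM scale the healthy mean of the sum was 13640 ± 2233 CPM and the CRC mean 11761 ± 1321 CPM (SD, n = 3 mice in each group). The direction of the summed family thus differed with the denominator, and no test was applied to the sum.

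The makeup of the sum also varied between mice. miR-16-5p made up 59.3%, 63.1% and 51.5% of family reads in M1, M2 and M3 and 50.5%, 39.2% and 46.0% in M4, M5 and M6, without overlap. miR-322-5p made up 2.42%, 2.36% and 2.41% in healthy and 2.92%, 4.16% and 2.87% in CRC mice, also without overlap, though its CPM values overlapped. With 3 mice against 3, an exact permutation test cannot give a p below 0.1, and none was run on these shares. miR-15a-5p made up 10.0%, 8.32% and 26.8% against 18.3%, 30.2% and 29.3%, where healthy M3 lay above CRC M4. miR-195a-5p took 12.9% to 22.4% in healthy and 14.5% to 15.8% in CRC mice, miR-15b-5p 2.40% to 8.62% and 4.82% to 10.9%, and miR-497a-5p 1.35% to 2.77% and 2.37% to 3.66%. These shares sum to the whole in each mouse and are not independent of each other.

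**Figure D3:**
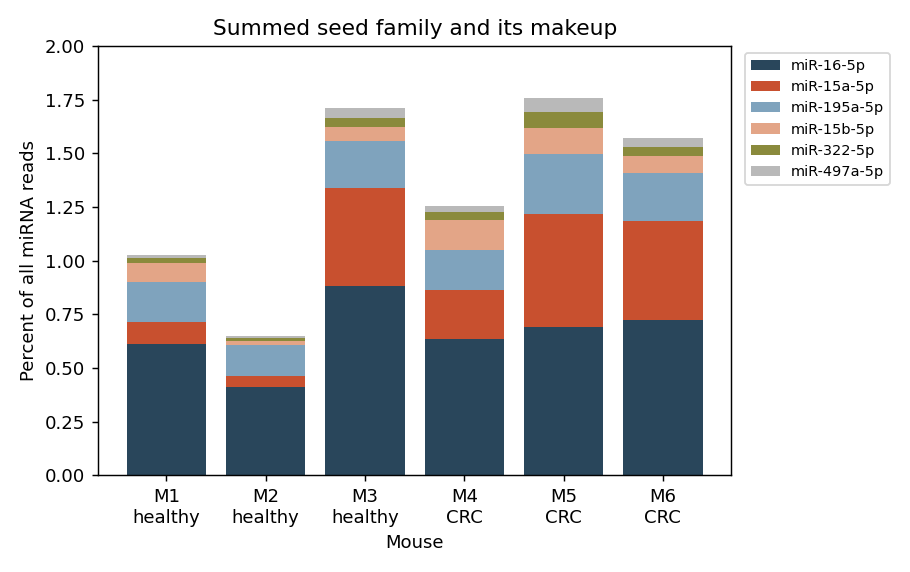
Stacked bars of the 6 seed strands as a percent of all miRNA reads (vertical axis from 0) in each mouse (horizontal axis). Bar heights run from 0.649% in healthy M2 to 1.76% in CRC M5, with M3 at 1.71% among the CRC mice, and the lowest block in each bar is miR-16-5p.

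Beyond the named members, 5 entries carry the same bases at positions 2 to 8: miR-195b, miR-1907, miR-6342, miR-6353 and miR-6419. Together they had 27 to 67 reads per mouse, 0.0192% to 0.0846% of all reads with the seed, so the 6 named strands carried nearly all of the seed in each mouse. Of the 5, 2 had enough reads for the test and neither passed it, with log2 differences of 1.00 for miR-1907 (SE 0.59, adjusted p = 0.327, edgeR) and -0.41 for miR-195b (SE 0.65, adjusted p = 0.727, edgeR).

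Arm balance, the log2 ratio of 5p to 3p counts, could be tested in 5 family hairpins among 234. It could not be tested in mir-16-1 and mir-16-2, which share their mature 5p strand. Their pooled 3p strands made up between 1.08% (M3) and 2.36% (M5) of miR-16 reads. 0 of 5 passed limma's test, and 0% of the 234 did, with 28 of the 234 at an unadjusted p under 0.05. The 3p strand of mir-15a made up 0.966%, 1.37% and 0.284% of the hairpin's reads in M1, M2 and M3 and 0.433%, 0.227% and 0.237% in M4, M5 and M6. M3 again sat with the CRC mice, and the balance lay 1.34 log2 units further toward the 5p strand in CRC mice (SE 0.66, adjusted p = 0.472, limma). The 3p strand of mir-322 made up 26.5% and 37.0% in M1 and M2 but 8.17% in M3, against 10.6%, 9.23% and 11.7% in M4, M5 and M6 (1.18 log2 units toward the 5p strand, SE 0.71, adjusted p = 0.492, limma). Its spread over the healthy mice was the 16th largest of 234.

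For mir-497a the order of healthy mice was the same, but its 3p reads may include those of the antisense miR-497b, described below. The 3p strand of mir-497a took 18.2%, 20.2% and 6.92% against 4.20%, 9.44% and 11.2% (0.95 log2 units toward the 5p strand, SE 0.66, adjusted p = 0.534, limma). In mir-15b other mice were high: the 3p share was 5.30%, 17.9% and 9.93% against 5.73%, 6.45% and 12.8% in the same order, with M2 and M6 highest (0.38 log2 units, SE 0.64, adjusted p = 0.760, limma). Without M2 that difference was -0.11. mir-195a varied least among the 5 hairpins, with 0.220% to 0.410% of reads from the 3p strand in all 6 mice (log2 difference -0.31, SE 0.43, adjusted p = 0.717, limma).

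**Figure D4:**
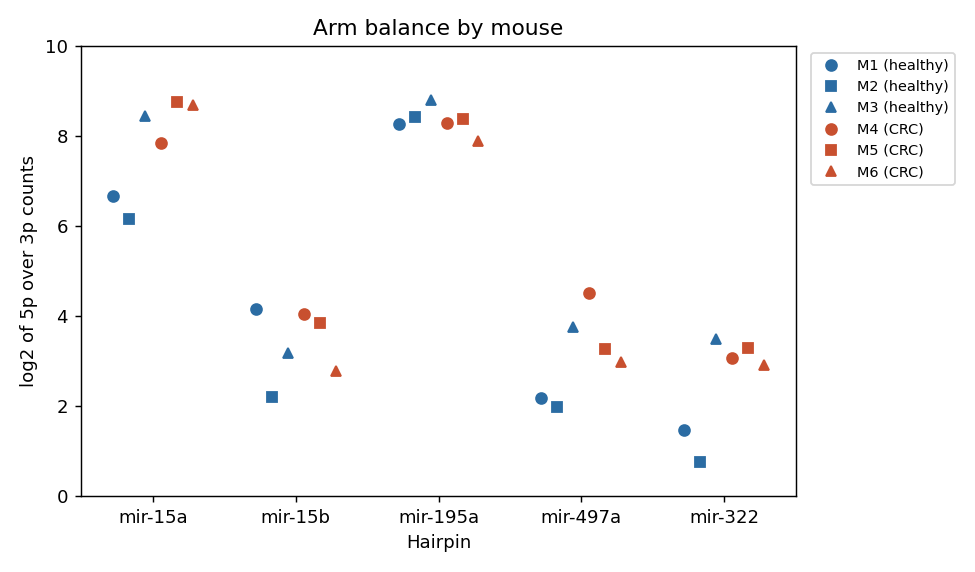
log2 of 5p over 3p counts (vertical axis) for the 5 family hairpins tested (horizontal axis; miR-497a-3p reads may not be separable from miR-497b), 1 point per mouse, blue healthy and red CRC. M1 and M2 are the lowest points for mir-15a, mir-497a and mir-322 while M3 lies among or above the CRC mice, and mir-195a points lie close together.

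miR-322-3p, not itself in the family, had 124, 155 and 33.2 CPM in M1, M2 and M3 and 45.9, 48.0 and 40.8 CPM in M4, M5 and M6, with a log2 difference of -1.22 (SE 0.56, adjusted p = 0.227, edgeR). Its cluster neighbour miR-503-5p, whose seed differs from the family's at its last base, had 271, 308 and 64.5 CPM against 99.1, 74.6 and 70.8 CPM (log2 difference -1.40, SE 0.57, adjusted p = 0.180, edgeR). In both, M1 and M2 were high and M3 lay below the CRC mice. Without M3 both were called lower, miR-322-3p at -1.72 and miR-503-5p at -1.90 (adjusted p = 0.0423 for each, edgeR), where 3.18% of 1068 miRNAs were. Neither was called when any other 1 mouse was left out, and values without both M3 and M4 are given below. Without M2, miR-322-3p was at -0.616 and miR-503-5p at -0.841 (adjusted p = 0.707 and 0.583, edgeR). With total counts alone they were at -0.284 and -0.507 (adjusted p = 0.778 and 0.569, edgeR). miR-322-5p itself had 0.37 or less and 0.11 or more without any 1 mouse and was not called (edgeR). miR-503-5p is printed because it shows that base.
miR-503-5p: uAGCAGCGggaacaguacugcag

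Across the 9 tested strands of the X chromosome cluster near miR-322 (from miR-503, miR-351, miR-542, miR-450a and miR-450b), 3 had positive and 6 negative values, with a median log2 difference of -0.33, and edgeR called 0, with 1 at an unadjusted p under 0.05. miR-103-3p and miR-107-3p, metabolic regulators whose seed is shifted by 1 base against the family's, had log2 differences of -0.50 (SE 0.43, adjusted p = 0.520, edgeR) and -0.54 (SE 0.46, adjusted p = 0.513, edgeR). miR-103-3p had 14519, 14720 and 8151 CPM in M1, M2 and M3 and 13655, 5651 and 7183 CPM in M4, M5 and M6, with M3 and M4 each outside the range of their group's other mice.

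miR-497a-3p and miR-497b are given with a limit. Mir497b lies on the minus strand at chr11:70234692-70234816, opposite Mir497, and 17 bases of the mature strands are reverse complements, in capitals below.
miR-497a-3p: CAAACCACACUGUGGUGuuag
miR-497b: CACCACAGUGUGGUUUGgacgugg
No source used here says whether reads were assigned by strand. miR-497a-3p had 42.6, 41.2, 31.8, 13.7, 43.3 and 34.2 CPM in M1 to M6, and miR-497b had 37.6, 37.7, 35.6, 16.5, 39.1 and 34.0 CPM. Both were lowest in M4 and otherwise near level, with log2 differences of -0.34 and -0.31 (adjusted p = 0.710 for each, edgeR).

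Leaving out the like pair M3 and M4, a step chosen with earlier results known, gave other calls. With M1 and M2 against M5 and M6, edgeR called 6 of 10 members, by p values that do not allow for this choice of mice. Higher were miR-15a-5p at 1.19 (adjusted p = 0.00057, edgeR) and miR-497a-5p at 0.65 (adjusted p = 0.0417, edgeR), where 25.8% of 1082 miRNAs were called higher. Lower were miR-16-5p at -1.003, miR-195a-5p at -0.90, miR-15a-3p at -1.11 and miR-16-2-3p at -0.92 (adjusted p = 0.00169, 0.00298, 0.0256 and 0.00853, edgeR), where 27.4% of 1082 were called lower. In all, 576 of the 1082 passed, and these 4 mice also differ most in smooth muscle share. miR-15b-5p at -0.48 and miR-15b-3p at -0.24 were then negative and not called. Outside the members, miR-322-3p at -1.94 and miR-503-5p at -2.28 were called lower (adjusted p = 8.88e-06 and 8.07e-07, edgeR). So were miR-103-3p at -1.46 and miR-107-3p at -1.50 (adjusted p = 6.6e-05 and 4.17e-05, edgeR). miR-195a-3p, miR-497a-3p and miR-497b were not called.

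**Figure D5:**
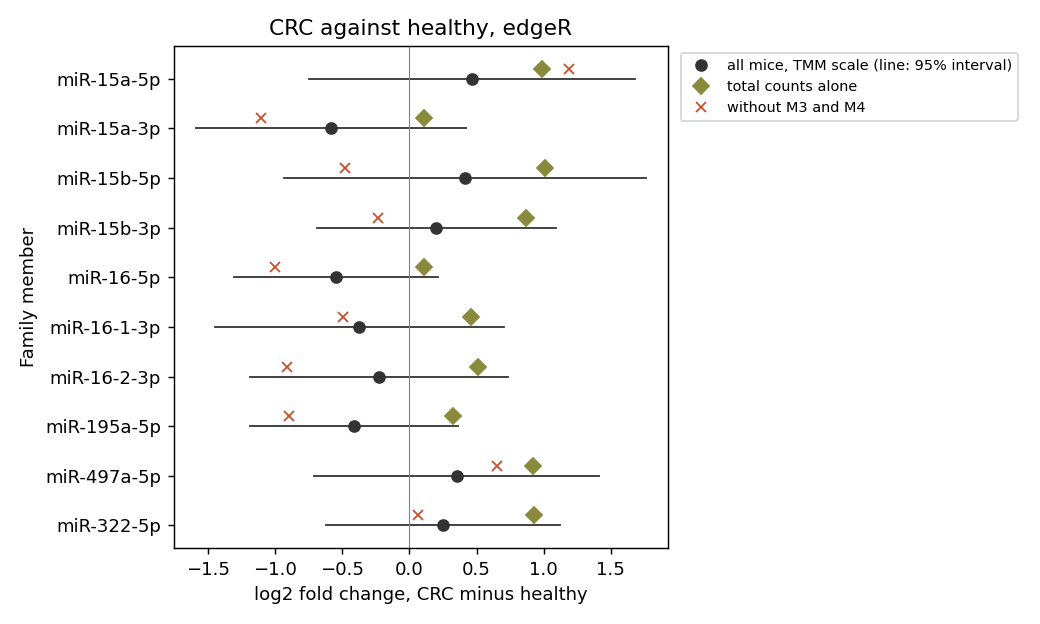
log2 difference of CRC minus healthy mice (horizontal axis) for the 10 members (vertical axis): black points are edgeR values with all mice and 95% intervals, green diamonds use total counts alone, red crosses leave out M3 and M4. All 10 intervals include 0, and total counts alone place all 10 values above 0, from 0.11 for miR-16-5p.

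Patterns across mice were compared between members. Likeness was measured as the root mean square difference of log2 CPM, each strand centred on its own mean, over 6 mice, where 0 is an identical pattern; the mice share library depth and tissue makeup, so the values are a description. miR-16-5p and miR-195a-5p differed by 0.21 and miR-15a-5p and miR-497a-5p by 0.32, whereas the cluster partners miR-195a-5p and miR-497a-5p differed by 0.72. miR-15a-5p and miR-16-5p, whose reads come from both miR-16 loci and cannot be assigned to the miR-15a cluster, differed by 0.95. Among 270 miRNAs outside the family with a mean of at least 50 CPM, those nearest to miR-16-5p were miR-26b-5p (0.07), miR-429-3p (0.12), an epithelial marker, and miR-141-5p (0.13), against a median of 0.51. Nearest to miR-195a-5p were miR-30a-3p (0.11), miR-27b-3p (0.13) and miR-101b-3p (0.14). Nearest to miR-15a-5p were miR-33-5p (0.14), miR-32-5p (0.25) and miR-21a-3p (0.26), against a median of 1.07, and nearest to miR-322-5p were miR-210-3p, miR-29a-3p and miR-30b-5p (0.22 to 0.23).

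miR-15b-5p had no such neighbour. Its nearest miRNA, miR-181d-5p, was at 0.61 against a median of 1.00, a comparison added after its values were seen. Between M1 and M2, whose profiles were alike, miR-15b-5p differed by 2.20 log2 units (M1 minus M2), the largest difference of 279 miRNAs with a mean of at least 50 CPM, over which the SD was 0.40. The next were miR-1957a at -1.84 and miR-5131 at 1.62. It stood out less in the other pairs, at 1.34 for M4 minus M3 (21st of 279) and 0.62 for M5 minus M6 (38th of 279). The M1 and M2 pair was singled out after its values were seen. Its passenger miR-15b-3p differed by 0.24 between M1 and M2, and miR-16-5p by 0.27.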

How the data were processed

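Small RNA of 6 mouse colorectum profiles was sequenced on an Ion Proton, per the labels' protocols. The authors deposited raw whole-number counts of 1915 mature miRNAs; BWA and mm10 (GRCm38) are named in the submitters' processing notes. For reads matching several hairpins or either strand, the counting rule was not found in the sources used here. Each of M2 to M6 has 1 labelled library and 1 column; M1 has 2 labelled libraries and 1 column, used as 1 replicate. Whether that column sums them is not given. The mice are separate animals.

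The test between groups was that of edgeR 4.0.16 (R 4.3.3; TMM, filterByExpr, robust quasi-likelihood fit, two-sided) with Benjamini-Hochberg adjustment over 878 miRNAs at 0.05. Arm balance was tested with limma 3.58.1 on the log2 ratio of 5p over 3p, after adding 0.5 to each count, for hairpins with a mean of 10 or more counts on each arm, and ratios by exact permutation with scipy 1.17.1. CPM is relative to the other miRNAs: TMM factors ran from 0.582 to 1.55, and total counts alone raised log2 differences by a median of 0.71. The common biological coefficient of variation was 0.511. The scripts were tested on simulated data. Members, lists, tests and alternatives were chosen with earlier results of these data known. The text names all members, other entries with the seed, the other arms, a list of cluster and seed relatives, and for 4 members the 3 miRNAs of most similar pattern. Alternatives were other scalings, no filter, DESeq2 1.42.0, limma-voom, leaving out mice, and removing each profile's trend on GC content by loess (span 0.75). Sequences and positions come from RefSeq (GRCm38.p6) and GENCODE M21.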

Additional observations from a re-analysis of the deposited data

How the results depend on the processing

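The count of 0 family members called held under the other scalings, without the filter, with DESeq2, with limma-voom, with the GC trend removed and without any 1 mouse, and was 6 without M3 and M4. The count over all miRNAs was 20, and 43 with total counts alone, 64 without the filter, 111 with DESeq2, 0 with limma-voom (216 at an unadjusted p under 0.05), 576 without M3 and M4, and 0 to 237 without 1 mouse; the cause was not tested. The ratios without overlap were 1 of 8, and 1 to 4 without 1 mouse, where fewer mice leave less to overlap. The sum of the family differed by 0.398 percentage points, 0.159 to 0.689 without 1 mouse (0.159 without M2, 0.689 without M3), and -0.001 among reads other than miR-143 and miR-145a. No family hairpin was called for arm balance with a pseudocount of 5, at a minimum mean count of 50 (mir-195a is then not tested) or without any 1 mouse; arm balance without both M3 and M4 was not run.

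With total counts alone, 5 members changed sign: miR-15a-3p to 0.109, miR-16-5p to 0.107, miR-16-1-3p to 0.457, miR-16-2-3p to 0.514 and miR-195a-5p to 0.324, as did miR-195a-3p (0.626), miR-497a-3p (0.536), miR-497b (0.514), miR-103-3p (0.204) and miR-107-3p (0.205). Directions above are therefore relative to the TMM scale. Without M3 and M4, miR-15b-5p (-0.482) and miR-15b-3p (-0.236) changed sign. Leaving out 1 mouse gave -0.496 to 0.024 for miR-16-2-3p, -0.469 to 0.059 for miR-195a-3p, -0.663 to 0.103 for miR-497a-3p, -0.529 to 0.075 for miR-497b and -0.114 to 0.865 for the mir-15b arm balance. No paired analysis was possible because the mouse numbers do not repeat across the groups. With 31 to 125 reads per mouse, the miR-15a and miR-16-1 passenger strands had the fewest counts among the members.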
